A study of Solanum lycopersicum with 12 samples.

Results

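The 2 edited tomato lines *slmyb60Cr1* and *slmyb60Cr2* were compared with each other, gene by gene, in leaf RNA. Both lines carry homozygous deletions made with CRISPR/Cas9 in *SlMYB60* (Solyc10g081490), so the comparison asks how far plants with independent edits of the same gene differ. It used 8 of the 12 libraries of the series, 4 of each line, and the 4 wild type libraries served to say which line departed from the unedited plants and entered 1 alternative fit. Of the 33976 genes in the deposited table, 20879 reached at least 0.5 TPM in at least 4 of the 8 libraries and were tested, while 13097 did not and were not tested.

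All plants were of the cultivar Red Setter, a processing tomato with determinate growth. The lines, labelled CR_1 and CR_2, were free of *Cas9* and in the second selfed generation after transformation, and each stands for 1 editing event. Every library was made from leaf discs pooled from 4 plants. The labels give a water stress for all 12 libraries, with irrigation suspended for 14 days, whereas the methods describe no water deficit for the RNA plants. That condition was in either case the same for the 3 genotypes. The unit is TPM, in which each library's length-corrected levels add up to 1000000, and which carries no read depth. The study reports read numbers per library, but counting errors were not estimated from them. The files pair no identifier with a gene name. Names below are those that the study gives, and the leaf label could not be checked against marker genes.

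MYB60 belongs to the plant MYB transcription factors, which bind DNA through repeated helix-turn-helix units. In Arabidopsis it acts in guard cells, the cells that open and close the stomatal pore. The leaf epidermis that holds these cells is covered by the cuticle, a layer of cutin and wax built from acyl lipids, and rests on cell walls that are loosened and rebuilt by expansins and xyloglucan-modifying enzymes.

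*SlMYB60* was low in both lines. It stood at 12.9, 12.3, 19.3 and 21.6 TPM in wild type replicates 1 to 4, at 1.57, 2.10, 2.78 and 2.30 TPM in *slmyb60Cr1* and at 2.19, 2.61, 3.14 and 2.87 TPM in *slmyb60Cr2*. No edited library reached any wild type library, and the libraries of the lines overlapped with each other. The mean was 2.19 ± 0.501 TPM (SD, n = 4) in *slmyb60Cr1* and 2.70 ± 0.405 TPM in *slmyb60Cr2*, or 13.2% and 16.4% of the wild type mean. *slmyb60Cr2* was higher in 4 of 4 same-numbered pairs, by 0.31 on the log2(TPM + 0.1) scale (95% interval 0.03 to 0.59), which did not pass the test (adjusted p = 0.206). An exact two-sided permutation test of 4 against 4 libraries gave p = 0.2, where 0.0286 is the smallest value it allows. The exact sign-flip test over the 4 pairs gave p = 0.125, its smallest value. Levels were estimated against the unedited transcript in both lines and the alleles retain different parts of it, so a difference in transcript level and one in the retained sequence cannot be told apart.

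Around the edited gene, the 10 tested genes on each side in identifier order had log2 differences between −0.37 and 0.68. Of these 20 neighbours, 0 were called, 3 had lines that did not overlap and 18 had a 95% interval inside ±1. Over all genes tested 0.0718% were called and 85.9% had such an interval. The lines did not overlap in 7.88% with *slmyb60Cr2* higher and in 1.52% with it lower. The counts in 20 genes do not set the neighbours apart.

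Across the genome most genes differed little between the lines. The 95% interval of the difference lay inside ±1 on the log2(TPM + 0.1) scale for 17927 genes or 85.9% of those tested. That is about a 2-fold difference in either direction, and more for genes of low TPM. The median interval was 0.45 wide. The median absolute difference was 0.13. A gene was called at an adjusted p below 0.05 and a log2 difference above 1 or below −1, from limma on log2(TPM + 0.1) with the replicate number as a block and the Benjamini-Hochberg adjustment. At these thresholds 15 genes were called (0.0718%), of which 8 were higher in *slmyb60Cr2* (0.0383% of the genes tested) and 7 were lower (0.0335%). By the adjusted p alone 23 genes passed (0.11%), 12 of them higher and 11 lower. Before adjustment, 4502 genes (21.6%) had a limma p below 0.05, a larger share than that limit gives when nothing differs. That count was 2736 without the replicate block, 3992 after scaling to the median log ratio and 3800 after quantile normalization. Small differences may thus be more widespread than the calls, to an extent that depends on these settings.

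The calls sat at the edge of the threshold. The smallest adjusted p was 0.0440, and the calls differed between designs. Without the replicate block 9 genes were called, 2 of them shared with the 15, and with all 12 libraries in the fit 52 were called, 11 of them shared. Leaving out any of the 8 libraries left 0 genes called by limma, with 3133 to 3596 genes at an unadjusted p below 0.05, against 4502 genes when all 8 were used. With the block, leaving out a library also takes its same-numbered partner out of the difference. At an adjusted p below 0.10, a limit added after seeing the data, 671 genes passed (3.21%), and 103 of them also differed by more than 1 (0.493%), 58 higher and 45 lower in *slmyb60Cr2*.

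**Figure D1:**
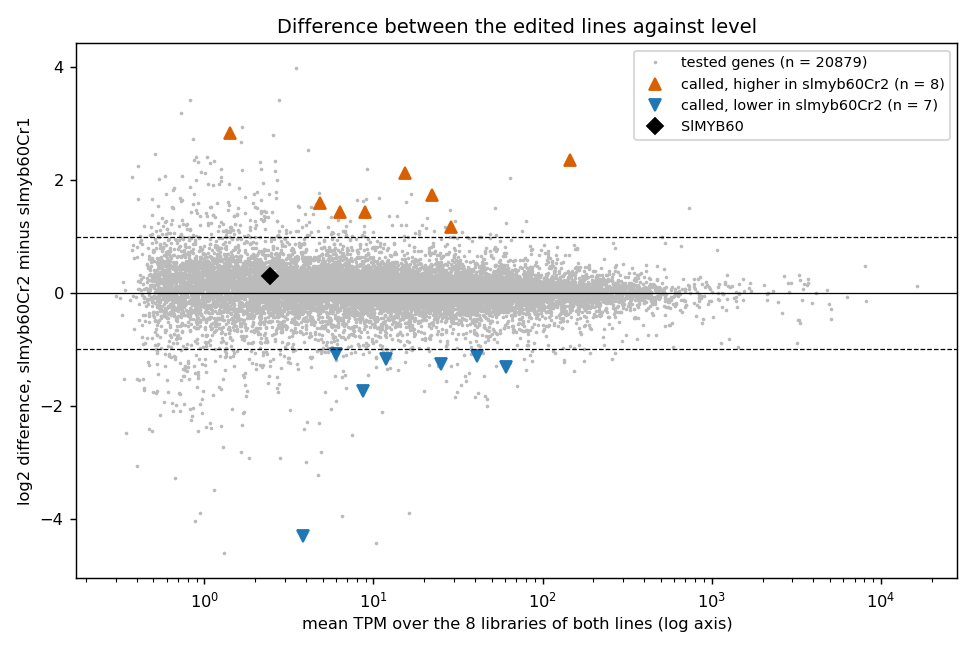
Each point is a tested gene, with its mean TPM over the 8 libraries of both lines on a log axis and its log2 difference, *slmyb60Cr2* minus *slmyb60Cr1*, on the vertical axis. Upward triangles are the 8 genes called higher in *slmyb60Cr2*, downward triangles the 7 called lower, the diamond is *SlMYB60* at 0.31, and dashed lines mark ±1. The called genes lie among many others with differences as large that did not pass the test.

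The 15 called genes lay on 10 of the 12 chromosomes, with at most 3 on one chromosome, and none matched an identifier that the study annotates. In 11 of them the libraries of the lines did not overlap. In the other 4, all lower in *slmyb60Cr2*, the ranges overlapped while each *slmyb60Cr2* library was below the *slmyb60Cr1* library of the same number. Of the 8 genes called higher, 4 had been called lower in *slmyb60Cr1* than in the wild type and not called in *slmyb60Cr2*, 3 were called higher in *slmyb60Cr2* and not called in *slmyb60Cr1*, and 1 was called in neither line. For the 7 genes called lower, the wild type mean was nearer to *slmyb60Cr1* in all 7, and 2 were called in *slmyb60Cr2* against the wild type, 0 in *slmyb60Cr1* and 5 in neither. The wild type mean was also nearer to *slmyb60Cr1* in 11477 of all 20879 genes tested. It was so in 212 of the 318 genes with every *slmyb60Cr2* library below every *slmyb60Cr1* library. Over all tested genes, the fit of all 12 libraries called 203 (0.972%) for *slmyb60Cr1* against the wild type and 366 (1.75%) for *slmyb60Cr2*, both contrasts sharing the wild type libraries.

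**Figure D2:**
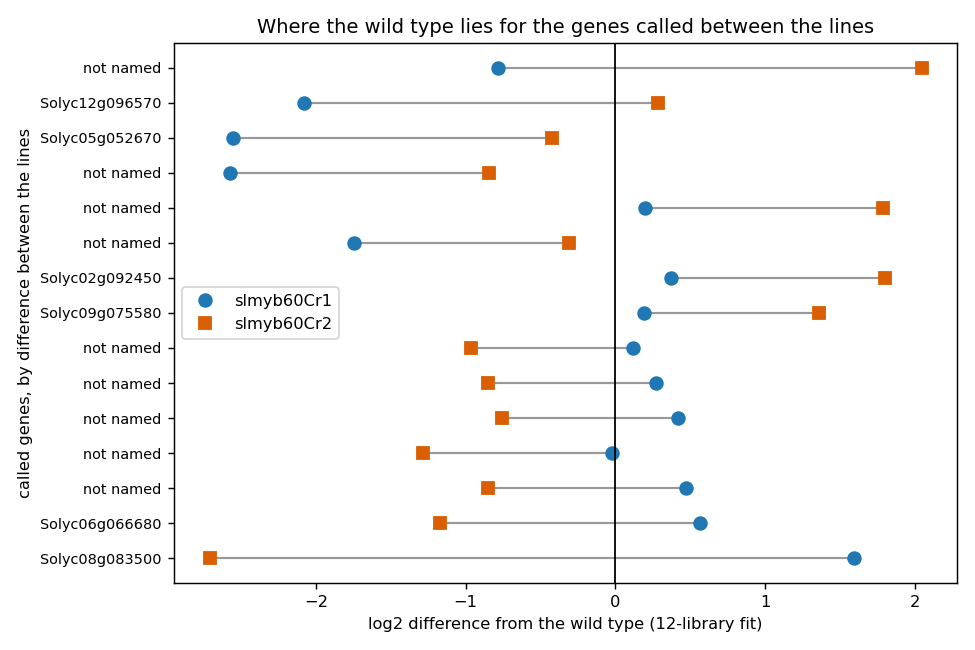
Each row is 1 of the 15 called genes, ordered by the difference between the lines, with the log2 difference from the wild type on the horizontal axis. Circles are *slmyb60Cr1*, squares are *slmyb60Cr2* and the vertical line is the wild type. In 4 rows the circle lies far left of the line with the square nearer to it, and in the 7 lowest rows the circle lies nearer to the line than the square.

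Solyc05g052670 was low in *slmyb60Cr1* and near the wild type in *slmyb60Cr2*. It was at 41.9, 39.8, 25.6 and 26.4 TPM in the wild type, at 3.93, 4.15, 8.08 and 6.77 TPM in *slmyb60Cr1* and at 17.1, 23.3, 25.5 and 34.1 TPM in *slmyb60Cr2*. Every *slmyb60Cr1* library was below every library of the other genotypes. The log2 difference between the lines was 2.13 (95% interval 1.76 to 2.50, adjusted p = 0.0440), and without the replicate block the call was lost (adjusted p = 0.0526). Against the wild type it fell in *slmyb60Cr1* (−2.55, adjusted p = 0.00653) and was not called in *slmyb60Cr2* (−0.42, adjusted p = 0.396). This gene was singled out after its values were seen, since its identifier falls between those of Solyc05g052650 and Solyc05g052680, which the study annotates as HXXXD-type acyl-transferases, a family that moves acyl groups onto alcohols and amines. Those genes did not follow it, but the study listed them as changed in both lines on these same libraries. The contrast is thus in part how the genes were chosen. Solyc05g052680 was at 2.21 to 5.16 TPM in *slmyb60Cr1* and 3.02 to 7.60 TPM in *slmyb60Cr2*, with 13.5 to 24.7 TPM in the wild type, and differed by 0.26 between the lines (adjusted p = 0.347). Solyc05g052650 was at 0.439 to 0.899 TPM and 0.283 to 1.53 TPM, with 3.61 to 8.05 TPM in the wild type, and differed by 0.48 (adjusted p = 0.544).

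Solyc12g096570, the most abundant of the 15 and also named after its values were seen, had the same arrangement. It was at 286, 277, 148 and 121 TPM in the wild type, at 31.6, 32.5, 54.4 and 78.1 TPM in *slmyb60Cr1* and at 164, 223, 299 and 283 TPM in *slmyb60Cr2*. The *slmyb60Cr1* libraries were again below all others. The log2 difference between the lines was 2.36 (1.98 to 2.75, adjusted p = 0.0440, or 0.0526 and not called without the block). It was −2.08 for *slmyb60Cr1* (adjusted p = 0.0365) and 0.28 for *slmyb60Cr2* (adjusted p = 0.694), each against the wild type.

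The genes with the smallest p among those higher in *slmyb60Cr2* showed the other arrangement, with *slmyb60Cr1* at the wild type level. Solyc09g075580 was at 10.5, 13.3, 15.6 and 24.1 TPM in the wild type, at 12.2, 17.7, 17.2 and 23.9 TPM in *slmyb60Cr1* and at 29.8, 41.8, 38.5 and 48.2 TPM in *slmyb60Cr2*. The lowest *slmyb60Cr2* library was above the highest library of either other genotype. The lines differed by 1.17 (1.02 to 1.32, adjusted p = 0.0440, or 0.0954 and not called without the block), and *slmyb60Cr2* rose against the wild type by 1.36 (adjusted p = 0.000675). Solyc02g092450 was at 1.97 to 3.67 TPM in the wild type, at 2.31, 3.46, 2.92 and 4.86 TPM in *slmyb60Cr1* and at 6.91, 8.55, 7.73 and 14.2 TPM in *slmyb60Cr2*. Its lines did not overlap either and differed by 1.43 (1.22 to 1.64, adjusted p = 0.0440, or 0.113 and not called without the block). It rose by 1.80 in *slmyb60Cr2* against the wild type (adjusted p = 0.000122), while the *slmyb60Cr1* value of 0.37 was not called (adjusted p = 0.0633).

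Among genes lower in *slmyb60Cr2*, Solyc06g066680 was at 29.02, 13.2, 4.60 and 5.88 TPM in *slmyb60Cr1* and at 9.57, 3.97, 1.43 and 1.39 TPM in *slmyb60Cr2*. Replicates 1 and 2 were above replicates 3 and 4 in both lines and in the wild type, which stood at 10.98, 9.98, 5.10 and 3.86 TPM, so the ranges of the lines overlapped although each pair moved the same way. The log2 difference was −1.73 (−1.99 to −1.48, adjusted p = 0.0440), and without the replicate block it did not pass the test (adjusted p = 0.386). Solyc08g083500 was at 5.42, 10.1, 7.77 and 6.01 TPM in *slmyb60Cr1* and at 0.400, 0.495, 0.216 and 0.0895 TPM in *slmyb60Cr2*. Its wild type libraries spanned both lines, with 0.777 and 0.226 TPM in replicates 1 and 4 against 9.60 and 11.7 TPM in replicates 2 and 3. The lines differed by −4.30 (−5.04 to −3.56, adjusted p = 0.0440, and 0.0307 without the block), and neither line was called against the wild type (adjusted p = 0.287 and 0.0658). Every *slmyb60Cr2* library was below 0.5 TPM, so this gene entered the test through *slmyb60Cr1* alone, and its p-values lend little support. The size of its difference depended on the pseudocount, with −3.28 at 0.5 and −2.66 at 1.

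Genes listed at 0 in one line were few. In 4 genes all *slmyb60Cr2* libraries were at 0 and all *slmyb60Cr1* libraries at or above 0.5 TPM, and 0 genes showed the reverse. One of the 4, Solyc10g046790, was at 3.96, 3.27, 2.21 and 1.05 TPM in *slmyb60Cr1* and was listed at 0 in all wild type and all *slmyb60Cr2* libraries. It was chosen after its values were seen. It missed the threshold with the block (adjusted p = 0.0602) and passed it without the block (0.0307) and with all 12 libraries (0.00607). These p-values lend no support, since the gene was picked for these values and reached the TPM limit in *slmyb60Cr1* alone. Its wild type and *slmyb60Cr2* values, all at 0, have no spread.

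**Figure D3:**
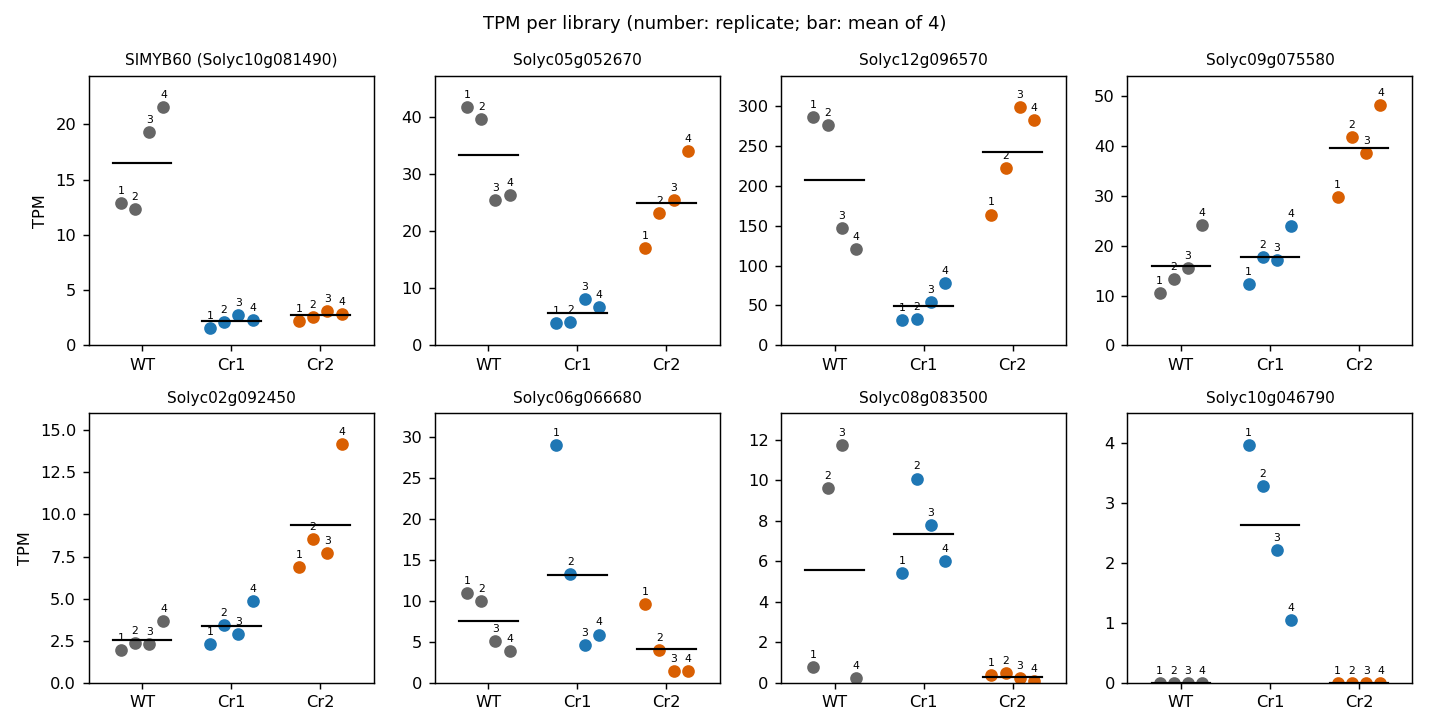
TPM in every library of *SlMYB60* and of 7 other genes, on linear axes that start at 0, for the wild type (WT), *slmyb60Cr1* (Cr1) and *slmyb60Cr2* (Cr2). The 7 genes were called between the lines, except Solyc10g046790, which missed the threshold. Numbers are replicate numbers and bars are means of 4 libraries. *SlMYB60* is low in both lines, Solyc05g052670 and Solyc12g096570 are low in *slmyb60Cr1* alone, Solyc09g075580 and Solyc02g092450 are high in *slmyb60Cr2* alone, and Solyc10g046790 is above 0 in *slmyb60Cr1* alone.

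The genes that the study annotates were followed as 5 lists beside *SlMYB60*. They come from genes reported as changed in both lines, on these same libraries, so their likeness between the lines is in part how they were chosen. Identifiers were taken from the study's printed list and could not be checked against names. Solyc06g007820 and Solyc09g009990, listed there as higher in both lines, were not called against the wild type here. Solyc06g007820 differed by 0.26 in *slmyb60Cr1* and 0.67 in *slmyb60Cr2*, and Solyc09g009990 by −0.29 and −0.28. Whether their identifiers were misread was not tested. Of 83 listed genes 79 were in the table and 69 were tested, and 0 of the 69 were called between the lines. With 0.0718% of all genes called, a count of 0 is near the background and says nothing about the listed genes. At an adjusted p below 0.10, 2 of the 69 passed with a log2 difference beyond 1, against 0.493% of all genes. The median difference over the 69 was 0.03, against 0.06 over all genes tested. The 95% interval lay inside ±1 for 44 of 69 (63.8%), against 85.9% of all genes, so a smaller share of them was bounded within ±1. The reason was not tested.

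**Figure D4:**
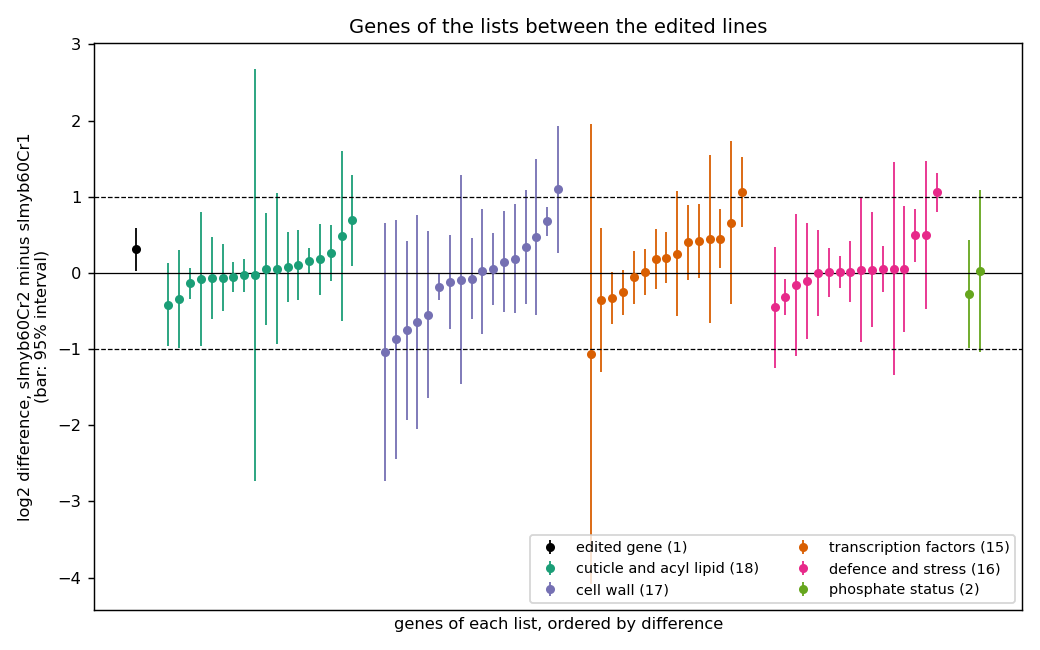
Log2 difference between the lines, *slmyb60Cr2* minus *slmyb60Cr1*, for the tested genes of each list, ordered by value, with 95% intervals. Dashed lines mark ±1. No gene of the lists was called, and the intervals of the cell wall genes and of single genes in other lists reach well past ±1.

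For the cuticle and acyl lipid genes, 18 of 23 were tested, 9 were higher and 9 lower in *slmyb60Cr2*, and 0 were called, with a median difference of 0.01 and differences between −0.42 and 0.69. The interval lay inside ±1 for 14 of the 18. The GDSL esterase/lipases, a family of ester-cleaving enzymes with members that link cutin, were low in both lines. Solyc03g005900 was at 0.353, 0.520, 0.438 and 0.461 TPM in *slmyb60Cr1* and at 0.699, 1.13, 0.662 and 0.664 TPM in *slmyb60Cr2*, with 3.57 to 5.89 TPM in the wild type. The lines did not overlap, yet the difference of 0.69 (0.09 to 1.29) did not pass the test (adjusted p = 0.192). Solyc11g032050 stayed below the TPM limit, at 0.0990 to 0.237 TPM and 0.218 to 0.352 TPM, with 0.684 to 1.18 TPM in the wild type.

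The lipid transfer proteins, small carriers of lipids, were high in both lines. Solyc10g075090 was at 1358, 1053, 1016 and 1137 TPM in *slmyb60Cr1* and at 1387, 828, 892 and 504 TPM in *slmyb60Cr2*, with 260 to 410 TPM in the wild type. It differed by −0.42 between the lines (−0.96 to 0.12, adjusted p = 0.316). Solyc10g075103 was at 173 to 277 TPM and 156 to 341 TPM, with 37.4 to 97.6 TPM in the wild type, and differed by 0.07 (−0.39 to 0.53, adjusted p = 0.831). The ranges overlapped for both genes.

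Solyc02g082910, an acyl-CoA synthetase that activates fatty acids, was at 1.17 to 3.24 TPM in *slmyb60Cr1* and 1.08 to 2.36 TPM in *slmyb60Cr2*, a difference of −0.07 (−0.60 to 0.47, adjusted p = 0.871). Solyc02g063140, listed as a 3-ketoacyl-CoA synthase, the enzyme type that lengthens very long fatty acids for wax, was at 0.491 to 1.19 TPM and 0.349 to 1.13 TPM. It differed by −0.34 (−0.98 to 0.30, adjusted p = 0.456). A difference of 1 on the log2(TPM + 0.1) scale lies outside the interval of these 4 genes, the transfer proteins included. At the low levels of Solyc02g063140, whose interval reaches −0.98, that does not exclude a 2-fold difference in TPM.

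For the cell wall genes, 17 of 20 were tested, 8 were higher and 9 lower, and 0 were called. Their median difference was −0.08, and the interval lay inside ±1 for 8 of the 17. The expansin Solyc09g018020, of a family that loosens walls, came nearest to the threshold. It was at 13.7, 17.7, 26.3 and 17.9 TPM in *slmyb60Cr1* and at 22.7, 29.4, 35.8 and 31.3 TPM in *slmyb60Cr2*, with 3.74 to 6.88 TPM in the wild type. *slmyb60Cr2* was higher in 4 of 4 pairs with overlapping ranges, by 0.68 (0.49 to 0.86, adjusted p = 0.0671). The endotransglycosylase Solyc09g092520 was at 26.0, 41.3, 43.7 and 94.8 TPM in *slmyb60Cr1* and at 99.0, 89.6, 116 and 90.5 TPM in *slmyb60Cr2*. Its difference of 1.09 had an interval from 0.26 to 1.93 (adjusted p = 0.165), and replicate 4 of *slmyb60Cr1* alone lay within the range of the other line.

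The lines differed in how much the cell wall genes varied from library to library. In 16 of 17 the standard deviation of log2(TPM + 0.1) was larger in *slmyb60Cr1*, with a median of 0.78 against 0.28 in *slmyb60Cr2* and 0.39 in the wild type. Over all tested genes it was larger in *slmyb60Cr1* for 56.3%, with medians of 0.18 and 0.16. These genes were measured in the same 4 libraries per line and are not independent, and no test was made of the spread. The defence and stress list had 14 of 16 genes with the larger spread in *slmyb60Cr1*, and the cuticle and acyl lipid list 7 of 18. For the transcription factors it was 9 of 15 and for the phosphate status genes 0 of 2. Over the tested genes of the study's whole list it was 93 of 144 (64.6%), with medians of 0.49 in *slmyb60Cr1* and 0.39 in *slmyb60Cr2*.

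Xyloglucan endotransglucosylase/hydrolases (XTHs), which cut and rejoin the xyloglucan chains of the wall, were larger in spread in *slmyb60Cr1* in 6 of 7, and 4 neighbouring members had the widest ranges among them. All 7 listed members were tested, 2 were higher and 5 lower in *slmyb60Cr2*, 0 were called, and the interval lay inside ±1 for 1. Solyc03g093110 was at 2.08, 6.61, 15.4 and 22.0 TPM in *slmyb60Cr1*, a 10.6-fold range, and at 4.51, 4.96, 2.80 and 3.99 TPM in *slmyb60Cr2*, a 1.77-fold range. Its wild type values were 0.836 to 1.03 TPM. The difference of −1.04 had an interval from −2.74 to 0.65 (adjusted p = 0.400). It was −1.75 without replicate 1 of either line, −0.59 without replicate 3 and −0.58 without replicate 4.

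Solyc03g093120 was at 1.25, 3.65, 10.2 and 13.9 TPM in *slmyb60Cr1* and at 2.51, 3.50, 2.11 and 3.03 TPM in *slmyb60Cr2*. Solyc03g093080 was at 4.75, 7.86, 18.6 and 26.4 TPM and at 6.38, 8.33, 6.36 and 6.58 TPM, and Solyc03g093130, listed as XTH3, at 5.95, 16.7, 34.8 and 55.5 TPM and at 18.8, 22.3, 16.1 and 22.4 TPM. In these 4 neighbouring genes replicate 1 of *slmyb60Cr1* was below every *slmyb60Cr2* library and, for Solyc03g093130, within the wild type range, while replicates 3 and 4 were above every *slmyb60Cr2* library. Genes with close sequence can share reads in the transcript estimates, so the 4 are not separate observations. The members on chromosome 12 did not share the pattern. Solyc12g011030 had a 1.40-fold range in *slmyb60Cr1* and 1.95-fold in *slmyb60Cr2*, with 3.26-fold in the wild type, and Solyc12g011023 had 2.48-fold, 1.80-fold and 2.47-fold.

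Replicate 1 of *slmyb60Cr1* was the lowest of its line for 12 of the 17 cell wall genes and the highest for 2, whereas it was the lowest for 3 and the highest for 9 of the 18 cuticle and acyl lipid genes. Over all genes tested it was the lowest for 29.8% and the highest for 37.9%. The peroxidase Solyc11g018774, of an enzyme class that couples phenolic units in walls, was at 4.51, 82.0, 67.2 and 126 TPM in *slmyb60Cr1* and at 64.4, 30.6, 64.7 and 23.1 TPM in *slmyb60Cr2*. The difference was −0.03 with an interval from −2.73 to 2.67, which bounds it little. Ethylene Response Factor D.4, Solyc10g050970, was at 0.329, 7.20, 12.8 and 20.6 TPM and at 1.43, 13.1, 3.11 and 0.570 TPM. Its difference of −1.06 (−4.09 to 1.96, adjusted p = 0.622) turned to 0.23 without replicate 4 of either line. These genes were named after their values were seen.

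**Figure D5:**
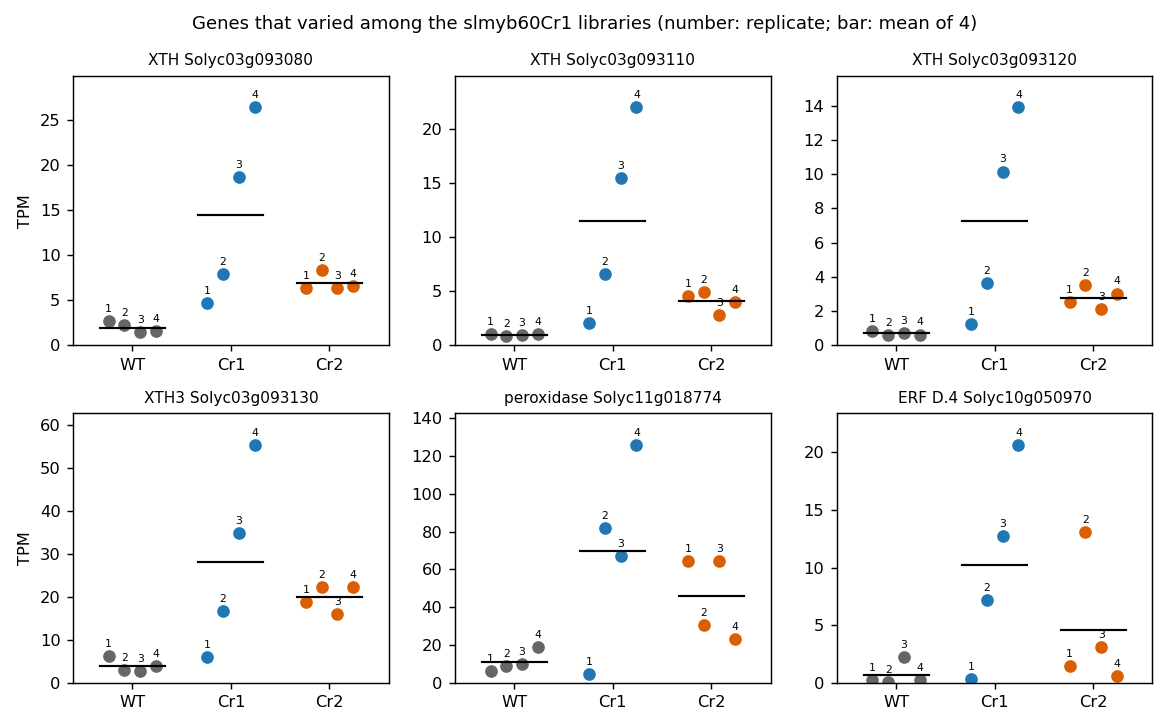
TPM in every library of 4 xyloglucan endotransglucosylase/hydrolases (XTH), a peroxidase and Ethylene Response Factor D.4 (ERF D.4), on linear axes that start at 0, for the wild type (WT), *slmyb60Cr1* (Cr1) and *slmyb60Cr2* (Cr2). Numbers are replicate numbers and bars are means of 4 libraries. Replicate 1 of *slmyb60Cr1* is the lowest of its line in all 6 panels, and the XTH values of *slmyb60Cr2* lie close together.

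Of the transcription factors, 15 of 17 were tested, 10 were higher and 5 lower, and 0 were called, with a median difference of 0.20. The bHLH factor Solyc12g036470, of a DNA-binding family, was at 7.82, 8.11, 13.6 and 15.3 TPM in *slmyb60Cr1* and at 12.4, 23.5, 35.2 and 24.7 TPM in *slmyb60Cr2*, with 38.3 to 66.3 TPM in the wild type. It was higher in *slmyb60Cr2* in 4 of 4 pairs with overlapping ranges, by 1.06 (0.60 to 1.52, adjusted p = 0.0857), and was the 1 listed gene called when all 12 libraries entered the fit (adjusted p = 0.0297). It fell against the wild type in both lines, by 2.16 in *slmyb60Cr1* and by 1.10 in *slmyb60Cr2* on the log2 scale.

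Of the defence and stress genes, 16 of 19 were tested, 12 were higher and 4 lower, and 0 were called, with a median difference of 0.03. Solyc09g008750 encodes a VQ motif protein, a class that binds WRKY transcription factors. It was at 2.90, 3.86, 4.92 and 3.33 TPM in *slmyb60Cr1* and at 7.44, 7.79, 9.27 and 6.84 TPM in *slmyb60Cr2*, with 14.4 to 30.3 TPM in the wild type. The lines did not overlap and differed by 1.06 (0.81 to 1.31), but the adjusted p was 0.0632. The adjoining Solyc09g008760, also a VQ motif gene, went the other way, at 7.46 to 14.4 TPM and 5.56 to 10.8 TPM, a difference of −0.32 (−0.55 to −0.08, adjusted p = 0.161).

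Solyc07g052790, a TIR-NBS-LRR gene of the class of intracellular immune receptors, was at 22.6, 22.0, 21.1 and 19.7 TPM in *slmyb60Cr1* and at 24.0, 33.7, 27.8 and 36.5 TPM in *slmyb60Cr2*. The lines did not overlap and differed by 0.50 (0.15 to 0.84, adjusted p = 0.152). Of the 3 genes of phosphate status, 2 were tested and 0 were called, with differences of −0.27 and 0.03.

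The study's whole list of genes changed in both lines could be matched for 160 of its 186 entries, and 144 of these were tested. Of the 144, 0 were called between the lines, 79 were higher and 65 lower, and the median difference was 0.02. Over all genes tested 0.0718% were called and 64.1% were higher, so a count of 0 is near the background. At an adjusted p below 0.10, 4 of the 144 passed with a log2 difference beyond 1, against 0.493% of all genes. The most negative difference was −1.33, for Solyc09g015440, whose lines did not overlap (adjusted p = 0.0734). The largest difference among them was that of Solyc09g089780, a 2-oxoglutarate-dependent oxygenase, of an enzyme family that oxidises small molecules. It was at 3.37, 1.16, 1.73 and 2.47 TPM in *slmyb60Cr1* and at 8.75, 6.82, 3.77 and 6.003 TPM in *slmyb60Cr2*, with 0.0474 to 0.709 TPM in the wild type. The lines did not overlap and differed by 1.53 (0.88 to 2.18, adjusted p = 0.0839).

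A small shift ran through the whole comparison. Of the 20879 genes 64.1% were higher in *slmyb60Cr2*, with a median difference of 0.06, and the medians of the 4 same-numbered pairs were 0.07, 0.04, 0.06 and 0.06. In 1646 genes (7.88%) every *slmyb60Cr2* library was above every *slmyb60Cr1* library, and in 318 (1.52%) every one was below. The share of genes higher in *slmyb60Cr2* was 63.7% up to a mean of 1 TPM, 65.5% between 1 and 3 TPM and 67.6% between 3 and 10 TPM. It was 67.5% between 10 and 30 TPM, 60.3% between 30 and 100 TPM, 55.7% between 100 and 300 TPM and 47.9% above 300 TPM. The 1000 most abundant genes took 46.1% to 48.9% of the TPM in *slmyb60Cr2* and 47.6% to 49.6% in *slmyb60Cr1*, and their part in the shift was not tested.

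The shift depended on the scaling. When each library was scaled to the median log ratio, an alternative added for this count after seeing the data, 952 genes were entirely higher and 854 entirely lower in *slmyb60Cr2*, and 50.4% of all genes were higher. After quantile normalization the counts were 1108 and 596, and 53.5% were higher. The genes called between the lines were little affected, with 14 called after the first scaling, all shared with the 15, and 16 after the second, 15 of them shared.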

How the data were processed

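Leaf poly(A) RNA of 12 libraries was sequenced as paired-end reads. After trimming with fastp, the authors ran Salmon against the ITAG 4.0 transcript set, with its corrections for sequence and GC bias switched on, and deposited 1 TPM value per gene and library with no pooling. Tool versions are not given in the sources used here. Every deposited column sums to 1000000, so the values are TPM and no count test was used. The study reports read numbers per library, but counting error per gene was not estimated.

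Columns were matched to samples by their labels, and 0 columns were left unmapped. Log2(TPM + 0.1) of the 8 edited libraries was fitted with limma 3.58.1 (intensity trend) in R 4.3.3, with line and replicate number as factors, over genes that reached 0.5 TPM in 4 or more of the 8, followed by the Benjamini-Hochberg adjustment over all genes tested. Differences on this scale understate those of low genes. Intervals are at 95% and not adjusted. A fit of all 12 libraries placed the wild type and gave 1 of the alternatives for the calls between the lines. In the main fit, p-values rest on the spread of these libraries that remains once line and replicate number are fitted, not on their whole spread. The procedure was tested on simulated data, and figures were drawn with matplotlib 3.10.9.

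The genes named are *SlMYB60*, the called genes with 1 sign in all 4 pairs (those annotated, and at most 2 without a name in each direction by smallest p), any called list member, and the cuticle genes named in the study's text. Others are said to be chosen after their values were seen, and so were the remaining list members named. The comparison, the lists and the tests were chosen with earlier results of these data known. The lists hold identifiers read from the study's list of genes changed in both lines. Solyc06g007820 and Solyc09g009990 did not show the listed change here. The gene table at hand held 0 of the identifiers used in the files, so no names, coordinates, marker genes or sequences were added. Alternatives covered the block, the libraries in the fit, the pseudocount, the TPM limit, the scaling, the variance model, the threshold and leaving out each library.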

Additional observations from a re-analysis of the deposited data

Results flagged for a closer look

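The 6 called genes that are named differed between the lines in the fit itself. The log2 difference, *slmyb60Cr2* minus *slmyb60Cr1*, was 1.17 for Solyc09g075580, 1.43 for Solyc02g092450, 2.13 for Solyc05g052670, 2.36 for Solyc12g096570, −1.73 for Solyc06g066680 and −4.30 for Solyc08g083500. Each had an adjusted p of 0.0440 and the same sign in 4 of 4 pairs, and each was called under some alternatives and not under others. Solyc08g083500 reached the TPM limit in *slmyb60Cr1* alone.

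Among 87 groups of 4 libraries looked at for the named genes, 6 held a library far from the rest by Dixon's criterion, where chance gives about 1 in 20. The GDSL gene Solyc03g005900 was at 1.13 TPM in *slmyb60Cr2* replicate 2, with 0.662 to 0.699 TPM in the other replicates. The GDSL gene Solyc11g032050 was at 0.352 TPM in *slmyb60Cr2* replicate 4. The XTH Solyc03g093080 was at 8.33 TPM in *slmyb60Cr2* replicate 2. In the wild type, Solyc09g008760 was at 48.4 TPM in replicate 1, Solyc09g092520 at 29.99 TPM in replicate 4 and Solyc10g050970 at 2.22 TPM in replicate 3.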

How the results depend on the processing

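Against 15 genes called and 23 past the adjusted p alone, the fit without the replicate block gave 9 and 11, and the fit of all 12 libraries gave 52 and 186. Without a filter on TPM, without limma's trend and against a null difference of 1, the counts were 0 and 0, with 4820, 4318 and 69 genes at an unadjusted p below 0.05. Leaving out each library gave 0 to 0 for both counts, and at an adjusted p below 0.10, added later, they were 103 and 671. The other alternatives gave 11 to 16 called. Listed genes called were 1 with 12 libraries and 2 at an adjusted p below 0.10. *SlMYB60* was not called under any alternative run for it, which leave out the test against a difference of 1, with differences of 0.19 to 0.36 and adjusted p of 0.139 to 0.540. Median scaling gave 952 and 854 non-overlapping genes, 52.7% of them higher in *slmyb60Cr2*, and 50.4% of all genes higher. Quantile normalization gave 596 lower, 65.0% and 53.5%. The cause was not tested.

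The labels do not say what a replicate number shares. Deviations of same-numbered libraries correlated at 0.47, 0.08, 0.43 and 0.08, so 2 of 4 pairs were over 0.1, and 2 of 4 numbers correlated best with their own. The block stayed the main design as the comparison defines it. Without the replicate block, genes called in *slmyb60Cr1* against the wild type went from 203 to 135.

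Directions turned only when a library was left out and only for genes not called. The ranges were −0.011 to 0.30 for Solyc10g075103, −0.27 to 0.094 for Solyc02g082910, −0.67 to 0.31 for Solyc03g093130, −1.31 to 0.78 for Solyc11g018774 and −2.03 to 0.23 for Solyc10g050970.

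TPM carries no depth, so what counting error adds for genes near 0.5 TPM is unknown. Each line stands for 1 editing event, and effects of the allele and of the line cannot be told apart.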
